A study of Mus musculus with 4 samples.

Results

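The 10 genes described here encode proteins through which a macrophage can restrain or license T cells. They are Cd274 and Pdcd1lg2, Cd80 and Cd86, Havcr2 and its ligand gene Lgals9, Lilrb4a, Vsir, Il10 and Tgfb1. They were taken by symbol from the 31053 genes of the deposited count tables, each symbol matched 1 gene, and all 10 passed the filter on low counts that left 13869 genes for the test. The question was how these genes differed between macrophages that had engulfed apoptotic prostate cancer cells and macrophages that had not.

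The cells were bone marrow (BM) macrophages grown with M-CSF from young male C57BL/6J mice. The co-culture lasted 16 to 18 h and was made with RM1 cells, a mouse prostate cancer line, that had been killed with UV light and stained with the dye CFSE. Efferocytic macrophages were sorted as F4/80+CFSE+ and non-efferocytic macrophages as F4/80+ only, and each sort gave 1 droplet library (10X Genomics 3′ chemistry) in Experiment 1 and 1 in Experiment 2. The labels name no genotype or drug that differed between the groups. The non-efferocytic macrophages are described both as cells that did not engulf and as macrophages alone, and whether they had been kept with RM1 cells is not settled by the labels or the methods. The dye marks a macrophage that carries tumor cell material and does not tell digestion from attachment. The labels do not say whether the experiments used separate animals, so p-values measure only the spread between these 4 libraries.

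T cells are switched on by antigen together with a second signal, which CD80 and CD86 on the antigen-presenting cell deliver through CD28, and the same ligands deliver an inhibitory signal through CTLA-4. PD-L1 (Cd274) and PD-L2 (Pdcd1lg2) engage PD-1 and dampen T cell activity, and tumor macrophages are a well-known source of both. TIM-3 (Havcr2), LILRB4 (Lilrb4a) and VISTA (Vsir) are inhibitory molecules that myeloid cells themselves carry, and galectin-9 (Lgals9) is a sugar-binding ligand of TIM-3. IL-10 and TGF-beta 1 are the classical suppressive cytokines, and both are known products of macrophages that clear dying cells.

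Cells were barcodes with at least 200 genes, at least 1000 unique molecular identifiers (UMIs, which count captured RNA molecules) and at most 10% mitochondrial UMIs. The 4 libraries held 6695 to 13411 such cells and 101216659 to 155224183 UMIs in them. Median UMIs per cell were 11146 and 9600 in the non-efferocytic libraries and 17171 and 17475.5 in the efferocytic libraries of Experiments 1 and 2. All 10 macrophage markers were present, at a summed 41255 and 35502 UMIs per 1000000 UMIs of the library (CPM) in the non-efferocytic and 32999 and 25057 CPM in the efferocytic libraries, with 5 called lower and 1 higher, whereas 9 of 10 dendritic cell markers stayed under 1 CPM in every library. Markers of RM1 cells summed to 0.573 and 11.4 CPM in the non-efferocytic and 0.120 and 9.37 CPM in the efferocytic libraries. Neutrophil lineage markers were lower in the efferocytic libraries (9 of 9 called lower), as were those of monocytes (6 of 6). Fewer were called lower for fibroblasts (5 of 8), B cells (3 of 7), dendritic cells (3 of 10), and T and NK cells (2 of 10). Of all genes tested, 19% were called lower. Of the T and NK cell markers, 8 of 10 stayed under 1 CPM in every library. B cell markers summed to 114 and 101 CPM in the non-efferocytic and 24.3 and 18.4 CPM in the efferocytic libraries. Without unnamed clusters and clusters of other cell types, an alternative chosen after seeing the data, 2 members were called higher and 6 lower. Of all genes, 18.3% were then called higher and 17.6% lower. The part of these cells in the level of each member was not tested. The libraries of Experiment 2 shared 118 cell barcodes against 14 to 23 for every other pair, and 63 of the 118 lay in a small T and NK cell-like cluster with few UMIs. Without all barcodes shared between libraries, an alternative chosen after seeing the data, the same 8 members were called.

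HIF-1α, the transcription factor at the center of the study, binds a short core written ACGTG or GCGTG, and both occurred before the start sites of members of the set. RefSeq start-site windows (GRCm38.p6, 250 bases before to 50 after the start) were at hand for 7 of the 10 genes, and not for Cd86, Lilrb4a and Il10. The 250 bases before the start of Cd274 and of Havcr2 are shown as the PD-L1 gene and the member with the clearest rise, both with the core, 5′ to 3′ on the plus strand with the core in capitals. The Cd274 stretch is chr19:29367188-29367437 and the Havcr2 stretch is chr11:46454681-46454930.
Cd274: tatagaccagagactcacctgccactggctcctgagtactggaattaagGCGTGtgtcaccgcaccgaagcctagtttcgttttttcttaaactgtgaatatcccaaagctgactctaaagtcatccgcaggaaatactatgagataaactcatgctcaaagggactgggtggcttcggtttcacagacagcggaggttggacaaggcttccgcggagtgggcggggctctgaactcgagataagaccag
Havcr2: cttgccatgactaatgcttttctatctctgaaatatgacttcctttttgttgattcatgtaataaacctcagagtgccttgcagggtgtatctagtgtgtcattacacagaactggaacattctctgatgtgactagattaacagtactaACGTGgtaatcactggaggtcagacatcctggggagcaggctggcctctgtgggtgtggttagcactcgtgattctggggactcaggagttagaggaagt

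Counting from the start site on both strands, Cd274 held GCGTG at -201 and ACGTG at 40, Havcr2 held ACGTG at -100, and Tgfb1 held GCGTG at -118. Of all 32841 windows of the same length, 19.6% held ACGTG and 32.4% held GCGTG. The STAT core TTCNNNGAA, which 8.30% of all windows held, was in none of the 7. These matches are letters in a window and were not tested as binding sites.

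Across the set, 2 of 10 genes were higher in efferocytic macrophages (Havcr2 and Lgals9), where 19.9% of all genes tested were called higher. A further 6 were lower (Pdcd1lg2, Cd80, Cd86, Lilrb4a, Vsir and Il10), where 19% of all genes were called lower. Cd274 and Tgfb1 did not pass the test. The calls are from edgeR's quasi-likelihood test on UMIs summed per library, with the experiment as a block and an adjusted p under 0.05 over all 13869 genes. CPM did not overlap between the groups for 9 of the 10 genes, and for 66.9% of all genes. The median log2 fold change, efferocytic over non-efferocytic, was -0.45 over the 10 genes and -0.02 over all genes.

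These fold changes describe a gene's share of the RNA in a library. Efferocytic cells gave more UMIs per cell, and a scaling to UMIs per cell instead moved the median of all genes to a log2 fold change of 0.60. The non-efferocytic library of Experiment 2 held 2226 cells under 2000 UMIs, against 269 to 437 in the other libraries. The part of these shallow cells in values per cell and in shares of cells was not tested. Of all calls, 51.2% were higher in efferocytic cells with the scaling used here (TMM), 33.3% with library totals and 92.2% with UMIs per cell. Per cell, Cd80, Lilrb4a and Vsir changed sign, with values of 0.14, 0.20 and 0.14 that did not pass the test and that lay below the median of all genes. Without the block, 1 member was called higher and 2 lower, where 9.27% of all genes were called higher and 7.74% lower. Scaled per cell, 4 members were called higher and 1 lower, where the shares of all genes were 49.9% and 4.23%. With 1 library left out (no block), 1 group held 1 library, and calls fell among the members and over all genes. The log2 fold changes of the members kept their signs. They ran from 0.90 to 1.36 for Havcr2, 0.44 to 0.84 for Lgals9 and -2.49 to -0.99 for Pdcd1lg2. For Cd86 they were -1.54 to -0.86, for Cd80 -0.65 to -0.32 and for Il10 -1.50 to -0.69. Those of Vsir were -0.56 to -0.39 and those of Lilrb4a -0.56 to -0.29.

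**Figure D1:**
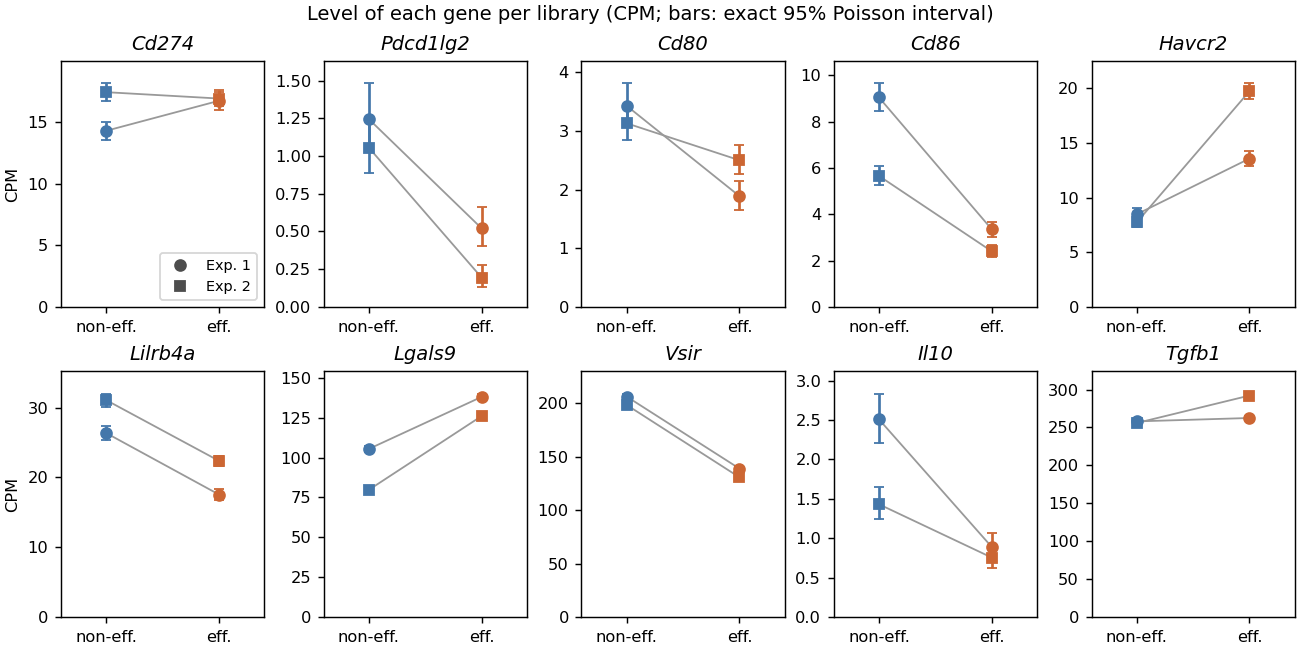
Each panel plots 1 gene as CPM (y axis, from 0) in the non-efferocytic (blue) and efferocytic (orange) libraries of Experiment 1 (circles) and Experiment 2 (squares), with exact 95% Poisson intervals that cover counting error only. Cd86 lay at 9.04 and 5.65 CPM in the non-efferocytic and at 3.34 and 2.40 CPM in the efferocytic libraries, whereas the groups overlapped for Cd274.

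Cd274, on chromosome 19 (GRCm38, 29367455 to 29388095), encodes PD-L1. Its level was 14.3 CPM in the non-efferocytic and 16.7 CPM in the efferocytic library of Experiment 1, and 17.4 and 16.9 CPM in those of Experiment 2. It was thus higher in efferocytic cells in Experiment 1, the Poisson intervals of the 2 libraries of Experiment 2 overlapped (16.7 to 18.1 and 16.3 to 17.6 CPM), and the groups overlapped. On the TMM scaling of the test, the log2 ratios of Cd274 were 0.37 and 0.02, with scaled levels of 13.8 and 16.8 CPM in the non-efferocytic and 17.8 and 17.1 CPM in the efferocytic libraries, which did not overlap. The log2 fold change was 0.20 ± 0.10 (SE) with an adjusted p of 0.159 by edgeR. It was 0.06 (adjusted p = 0.823) without the non-efferocytic library of Experiment 1 and 0.35 (adjusted p = 0.22) without that of Experiment 2 (no block). UMIs per 1000 cells were 175 and 180 in the non-efferocytic and 312 and 312 in the efferocytic libraries. Scaled per cell, Cd274 had a log2 fold change of 0.82 and an adjusted p of 0.00754. In barcodes under 100 UMIs, taken as free RNA, Cd274 was at 14.1 and 16.1 CPM in Experiment 1 and at 36.9 and 41.5 CPM in Experiment 2, where it was above the level in cells. In macrophage-like clusters alone the sign of Cd274 turned to -0.23 (adjusted p = 0.15). That choice left out 4 macrophage-like clusters whose 10 leading genes held a B cell or monocyte marker (Ighm, F13a1 or Ccr2), among them the largest non-efferocytic cluster of each experiment, and kept 43.9% and 37.8% of non-efferocytic but 86.6% and 93.8% of efferocytic cells. With these 4 clusters kept, an alternative chosen after seeing the data, the log2 fold change was 0.14 (adjusted p = 0.322).

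Pdcd1lg2 lies next to Cd274 on chromosome 19 (29410919 to 29471161) and encodes PD-L2. It was rare, with 126 and 146 UMIs in the non-efferocytic and 65 and 30 UMIs in the efferocytic libraries. These are 1.24 and 1.06 against 0.520 and 0.193 CPM, with both efferocytic libraries below both non-efferocytic libraries. The log2 fold change was -1.69 ± 0.31 (SE), adjusted p = 0.00445 by edgeR. In the free RNA its level was 2.19 to 3.60 CPM, above that in cells in every library. After a subtraction of 10% free RNA the log2 fold change was larger but less precise, -3.28 ± 1.50 (SE), and did not pass the test (adjusted p = 0.188). Without the block it was -1.58 ± 0.49 (SE, adjusted p = 0.0821). With 1 efferocytic library left out (edgeR, no block) it was -2.49 (adjusted p = 0.0132) without that of Experiment 1 and -0.99 (adjusted p = 0.0883) without that of Experiment 2.

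Cd86 and Cd80 lie on chromosome 16 (36603869 to 36666081 and 38455561 to 38496335) and encode the B7 ligands of CD28 and CTLA-4. Cd86 measured 9.04 and 3.34 CPM in the non-efferocytic and efferocytic libraries of Experiment 1 and 5.65 and 2.40 CPM in those of Experiment 2. Both efferocytic libraries were low and the groups did not overlap. Cd86 fell from 7.35 ± 2.40 to 2.87 ± 0.67 CPM (SD, n = 2 libraries), a 2.34-fold lower level by the fit. Its log2 fold change was -1.23 ± 0.12 (SE), adjusted p = 2.76e-04 by edgeR. Its level in free RNA was 6.77 to 11.7 CPM, above that in cells in every library, and the call held after the subtraction of free RNA (adjusted p = 0.0175). Counted per cell, its adjusted p was 0.0523.

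Cd80 measured 3.43 and 1.89 CPM in the non-efferocytic and efferocytic libraries of Experiment 1 and 3.13 and 2.50 CPM in those of Experiment 2. Its groups did not overlap, and the log2 fold change was -0.48 ± 0.16 (SE), adjusted p = 0.0439 by edgeR, with the opposite sign when scaled per cell. The Cd80 call was lost under 8 of the 14 alternatives in which it was tested, among them macrophage-like clusters alone (log2 fold change -0.08, adjusted p = 0.793). It held with the 4 clusters kept that this choice left out, which was tried after seeing the data (-0.53, adjusted p = 0.0443). Without the efferocytic library of Experiment 1 the log2 fold change of Cd80 was -0.32 (adjusted p = 0.24). MHC class II markers, which mark antigen-presenting macrophages, were also lower. Their summed level was 528 and 952 CPM in the non-efferocytic and 55.6 and 113 CPM in the efferocytic libraries, and 6 of 6 were called lower. In 1 cluster of Experiment 2 all 6 were raised at least 4-fold. Its non-efferocytic cells held Cd86 at 5.45 and Cd80 at 2.16 CPM, against 5.65 and 3.13 CPM in the library. Its 67 efferocytic cells held Cd86 at 7.96 CPM (9 UMIs) and Cd80 at 1.77 CPM (2 UMIs), against 2.40 and 2.50 CPM. The part of such cells in the Cd80 and Cd86 values was not tested.

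Havcr2, on chromosome 11 (46454935 to 46481255), encodes the inhibitory receptor TIM-3. Its level was 8.47 CPM in the non-efferocytic and 13.6 CPM in the efferocytic library of Experiment 1, and 7.72 and 19.7 CPM in those of Experiment 2. Both efferocytic libraries were high, that of Experiment 2 most, and the groups did not overlap. In the free RNA Havcr2 was at 4.65 and 11.9 CPM in Experiment 1, below the level in cells, and at 11.6 and 23.5 CPM in Experiment 2, above it, and there too it was higher in the efferocytic libraries. Havcr2 rose from 8.09 ± 0.53 to 16.7 ± 4.36 CPM (SD, n = 2 libraries), 2.19-fold by the fit. The log2 fold change was 1.13 ± 0.14 (SE), adjusted p = 7.84e-04 by edgeR. The call held under all 15 alternatives that kept the 4 libraries, with log2 fold changes from 1.02 to 1.75.

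Lgals9, also on chromosome 11 (78962974 to 78984946), encodes galectin-9. Its level was 105 and 79.8 CPM in the non-efferocytic and 138 and 126 CPM in the efferocytic libraries of Experiments 1 and 2. Lgals9 thus rose together with the gene of its receptor, with groups that did not overlap. The log2 fold change was 0.63 ± 0.09 (SE), adjusted p = 0.00141 by edgeR, and the adjusted p was 0.056 without the block.

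Vsir, on chromosome 10 (60346851 to 60372684), encodes VISTA and overlaps Cdh23 on the opposite strand. It measured 206 and 139 CPM in the non-efferocytic and efferocytic libraries of Experiment 1 and 198 and 131 CPM in those of Experiment 2. Both experiments gave nearly the same drop, with log2 CPM ratios of -0.57 and -0.60. Vsir fell from 202 ± 5.54 to 135 ± 5.76 CPM (SD, n = 2 libraries), and the log2 fold change was -0.48 ± 0.09 (SE), adjusted p = 0.00447 by edgeR. Counted per 1000 cells it gave 2522 and 2593 UMIs in Experiment 1 and 2048 and 2414 UMIs in Experiment 2, and the sign of its fold change turned under the scaling per cell.

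Lilrb4a, on chromosome 10 (51490956 to 51496611), encodes an inhibitory receptor of myeloid cells. It measured 26.4 and 17.5 CPM in the non-efferocytic and efferocytic libraries of Experiment 1 and 31.1 and 22.4 CPM in those of Experiment 2. The groups did not overlap, and the log2 fold change was -0.42 ± 0.08 (SE), adjusted p = 0.00421 by edgeR, with the opposite sign when scaled per cell.

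The value of Lilrb4a is uncertain because its transcripts share stretches with those of the related gene Lilr4b. Of the 5763 distinct 50-base words in the annotated transcripts of Lilrb4a, 26.1% also occurred in those of Lilr4b and 33.7% in those of Gm49339, which overlaps it on the same strand. Lilr4b, named after its values were seen, went the other way. It measured 203 and 249 CPM in the non-efferocytic and efferocytic libraries of Experiment 1 and 215 and 347 CPM in those of Experiment 2, with a log2 fold change of 0.60 ± 0.11 (SE) and an adjusted p of 0.00415 by edgeR.

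Il10, on chromosome 1 (131019845 to 131024974), encodes the cytokine IL-10. Its UMIs were few, 254 and 198 in the non-efferocytic and 111 and 117 in the efferocytic libraries. The levels were 2.51 and 0.888 CPM in Experiment 1 and 1.43 and 0.754 CPM in Experiment 2, so both efferocytic libraries were low. The log2 fold change was -1.11 ± 0.19 (SE), adjusted p = 0.00338 by edgeR. The call was lost without the block and with UMIs per cell, where the adjusted p reached up to 0.147. Without the non-efferocytic library of Experiment 1 the log2 fold change was -0.69 (adjusted p = 0.27).

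Tgfb1, on chromosome 7 (25687002 to 25705077), encodes TGF-beta 1. It measured 258 and 262 CPM in the non-efferocytic and efferocytic libraries of Experiment 1 and 256 and 292 CPM in those of Experiment 2. The groups did not overlap, yet the log2 fold change of 0.22 ± 0.09 (SE) did not pass the test (adjusted p = 0.106 by edgeR). UMIs of Tgfb1 per 1000 cells were 3154 and 2639 in the non-efferocytic and 4901 and 5392 in the efferocytic libraries, and with that scaling it was called higher (log2 fold change 0.83, adjusted p = 8.31e-05).

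In the free RNA, Lgals9, Lilrb4a and Tgfb1 were below their level in cells in every library. Vsir was above it in the efferocytic library of Experiment 2 alone (145 against 131 CPM). Cd80 was above it in all but the non-efferocytic library of Experiment 1, at 2.38 to 6.49 CPM, and Il10 in all but that of Experiment 2, at 1.05 to 4.65 CPM.

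**Figure D2:**
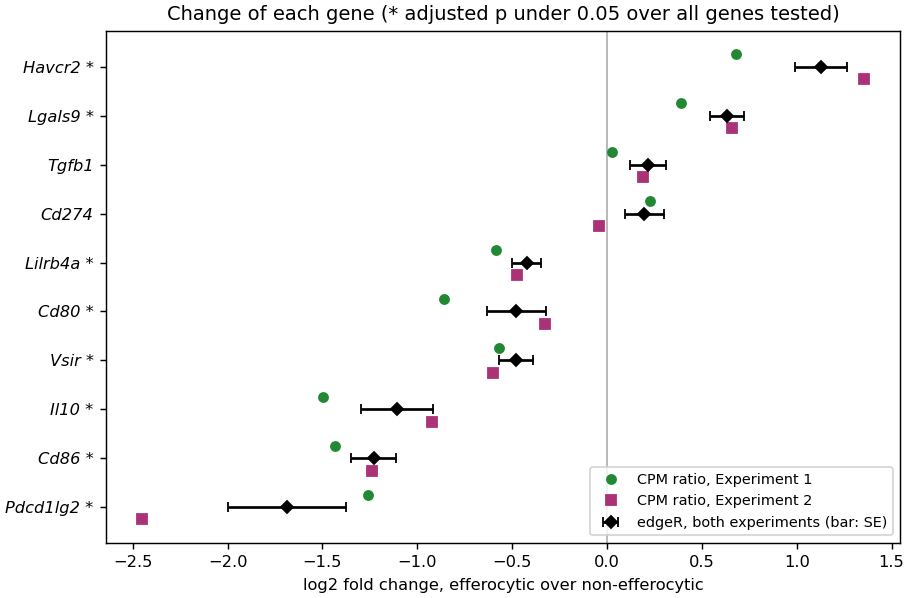
The x axis gives the log2 fold change of each of the 10 genes, efferocytic over non-efferocytic, with the edgeR estimate over both experiments (diamonds, bars for the SE) and the CPM ratio within Experiment 1 (circles) and Experiment 2 (squares). Both experiments lay on the same side of 0 for 9 genes, Cd274 being the exception with 0.23 and -0.04 (0.37 and 0.02 on the TMM scaling). Cd80, Lilrb4a and Vsir, left of 0 here, changed sign when scaled per cell.

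The share of cells with a UMI of a gene rose with depth, and for some members it went against the level. Cd274 was seen in 13.2% and 13.7% of non-efferocytic and in 21.3% and 21.5% of efferocytic cells. At an equal depth of 5000 UMIs per cell, which left out 505 to 3404 shallower cells per library, the expected shares were 6.44% and 7.78% against 7.75% and 7.67%. The gain in PD-L1 transcript-positive cells seen without thinning was thus 1.31 percentage points in Experiment 1 and -0.11 in Experiment 2 at equal depth, and no order was read from it.

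Havcr2 was seen in 9.02% and 7.18% of non-efferocytic and in 20.7% and 28.6% of efferocytic cells, and after thinning in 4.11% and 3.80% against 6.51% and 9.64%. The difference was 11.7 and 21.4 percentage points without thinning and 2.40 and 5.84 percentage points at equal depth. Vsir was seen in 82.2% and 71.8% of non-efferocytic against 82.0% and 81.7% of efferocytic cells, and after thinning in 64.0% and 62.3% against 49.8% and 47.5%. Its unthinned share differed by -0.16 percentage points in Experiment 1 and by 9.84 in Experiment 2, while its level was lower in the efferocytic cells of both.

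For Cd86 the shares were 9.17% and 4.97% against 5.20% and 3.71%, and 4.30% and 2.71% against 1.57% and 1.19% after thinning. Il10 was seen in 2.67% and 1.34% of non-efferocytic against 1.49% and 1.31% of efferocytic cells, and after thinning in 1.33% and 0.739% against 0.429% and 0.404%. Lgals9 was seen in 59.4% and 46.1% against 78.2% and 79.3%, and in 38.5% and 32.1% against 47.3% and 45.4% after thinning. For Tgfb1 the thinned shares were 72.6% and 72.0% against 72.6% and 76.2%, and for Lilrb4a 12.0% and 12.8% against 8.39% and 10.1%. Pdcd1lg2 was the rarest, in 1.50% and 1.07% of non-efferocytic and 0.941% and 0.357% of efferocytic cells. With 1 library per group in each experiment, no test was made of a share.

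Cells of another type gave the background of these shares. Fibroblast-like cells formed a cluster of 44 cells in Experiment 1 (median 43882 UMIs) and of 58 cells in Experiment 2 (median 34000 UMIs), and these clusters also carried macrophage markers. They were deeper than the libraries and were not thinned, and a further cluster of 106 fibroblast-like cells with few UMIs (median 1528.5) was not used.

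Vsir and Lilrb4a were the members whose share lay above the 95% interval of this background in every library. Vsir had a UMI in 56.8% (41.0% to 71.7%) and 36.2% (24.0% to 49.9%) of the fibroblast-like cells. Lilrb4a had one in 4.55% (0.555% to 15.5%) and 8.62% (2.86% to 19.0%), against library shares of 23.6% to 29.4%. For Cd274 the background was 4.55% (0.555% to 15.5%) and 5.17% (1.08% to 14.4%). Without thinning, it held the share of both non-efferocytic libraries and lay below that of both efferocytic libraries, which were deeper. At 5000 UMIs per cell the Cd274 shares were 6.44% and 7.78% against 7.75% and 7.67%. No contrast of the groups was read from this background.

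For Havcr2 it was 13.6% (5.17% to 27.4%) and 1.72% (0.0436% to 9.24%), so that the efferocytic library of Experiment 2 alone lay above it. The Tgfb1 background was 90.9% (78.3% to 97.5%) and 74.1% (61.0% to 84.7%), and again the efferocytic library of Experiment 2 alone, at 94.1%, lay above it. Lgals9 had a UMI in 81.8% (67.3% to 91.8%) and 72.4% (59.1% to 83.3%), and no library lay above these intervals. The shares of Pdcd1lg2, Il10, Cd86 and Cd80 also lay within or below the background, which was 9.09% and 0 for Cd86, 2.27% and 0 for both Pdcd1lg2 and Il10, and 11.4% and 15.5% for Cd80. A count of 0 of 58 cells allows a share of up to 5.17% when the limit is set at 3 cells, and of up to 6.16% by the Clopper-Pearson interval. The fibroblast-like cells were deeper than the libraries and carried macrophage markers. A share within or below their interval therefore cannot tell whether a gene was expressed, or whether libraries differed. The Havcr2 shares of Experiment 1 were 9.02% (8.41% to 9.66%) in non-efferocytic and 20.7% (19.7% to 21.7%) in efferocytic cells. At 5000 UMIs per cell they were 4.11% and 6.51%. As levels, the fibroblast-like cells held 3.13 and 0.493 CPM of Havcr2, 65.7 and 54.2 CPM of Lgals9, and 88.7 and 69.5 CPM of Tgfb1, each below the level in both libraries of its experiment.

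**Figure D3:**
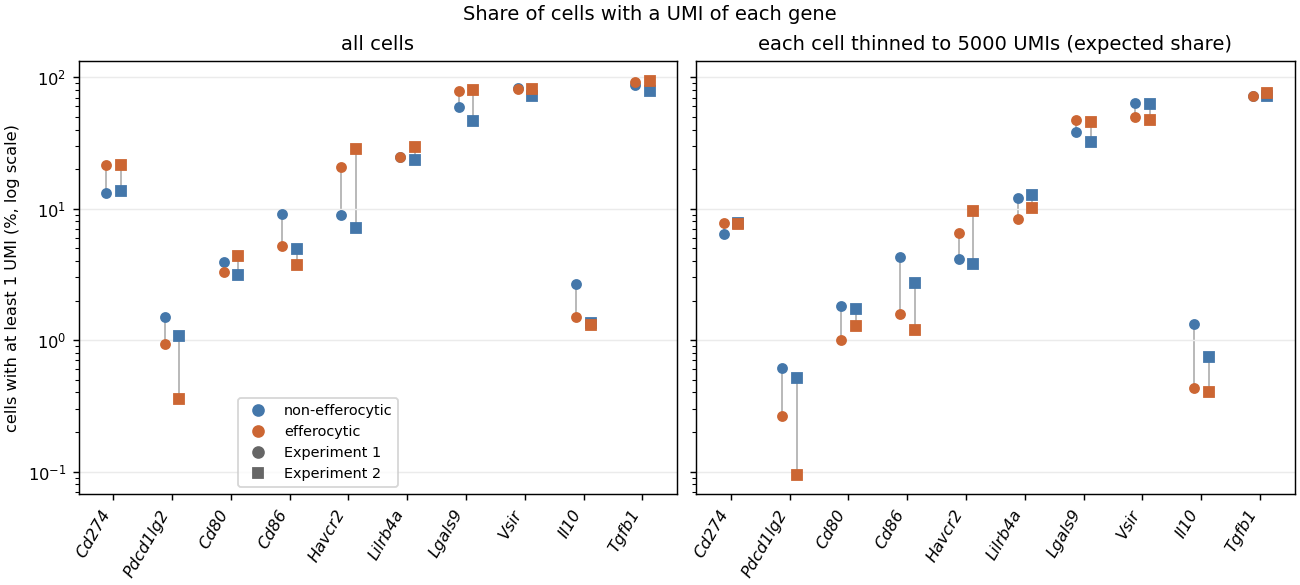
Both panels plot the percent of cells with at least 1 UMI (log y axis) for each gene in the non-efferocytic (blue) and efferocytic (orange) libraries of Experiment 1 (circles) and Experiment 2 (squares), left over all cells and right as the expected share at 5000 UMIs per cell. The Cd274 points of Experiment 2 were 13.7% and 21.5% on the left and 7.78% and 7.67% on the right, and those of Havcr2 were 7.18% and 28.6% on the left and 3.80% and 9.64% on the right.

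PD-L1 was unevenly spread among the macrophages. The cells of each experiment were clustered separately, and clusters rest on all genes, so the following is a description with no test. Clusters are ranked among the macrophage-like ones by the CPM over the cells of both libraries, which take different shares of each cluster. In other clusters single UMIs weigh heavily, and an unnamed cluster of 26 cells in Experiment 1 held Il10 at 71.6 CPM from 3 UMIs and Cd86 at 95.5 CPM from 4 UMIs. Cd274 was highest in a cluster led by Trib3, Phgdh, Asns, Mgam and Prss46, which include enzymes of serine and asparagine synthesis. It reached 58.4 CPM (95% Poisson interval 54.0 to 63.2) in the 536 cells of that cluster in Experiment 1, and 75.2 CPM (69.9 to 80.9) in the 564 cells of its counterpart in Experiment 2. The median over macrophage-like clusters was 18.4 and 15.1 CPM. Among the efferocytic cells of Experiment 2 the order turned, since 17 cells of a cluster led by Cxcl10 held Cd274 at 160 CPM (48 UMIs, 118 to 212 CPM) against 81.0 CPM (74.3 to 88.2) in this cluster.

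A UMI of Cd274 was found in 51.7% and 61.2% of the cells of these clusters, at median depths close to those of the largest efferocytic cluster, where the share was 17.6% and 17.3%. Efferocytic cells were 357 of the 536 and 353 of the 564. With 5.33% of all efferocytic cells the cluster held 23.04% of their Cd274 UMIs in Experiment 1, and with 4.20% it held 20.5% in Experiment 2. Among non-efferocytic cells the cluster held 9.88% and 8.46% of the Cd274 UMIs in 2.16% and 1.57% of the cells. Within it Cd274 was higher in efferocytic cells, at 63.8 against 45.5 CPM in Experiment 1 and 81.0 against 63.4 CPM in Experiment 2.

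Cd86 peaked in the same clusters, at 22.8 and 24.3 CPM against medians of 4.82 and 3.81 CPM. Here the libraries differed the other way, with 18.4 CPM in efferocytic against 33.4 CPM in non-efferocytic cells in Experiment 1 and 18.1 against 37.0 CPM in Experiment 2. Il10 was nearly absent from them, with 2 UMIs in each experiment (0.187 and 0.203 CPM). Havcr2 was also high there, at 20.6 and 23.3 CPM against medians of 10.8 and 13.1 CPM. Among efferocytic cells the clusters led by cell division genes (Cenpf and Hmmr) held as much, at 20.6 against 20.5 CPM in Experiment 1 and 29.0 against 27.3 CPM in Experiment 2, with intervals that overlapped.

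A cluster led by Cxcl10 and Ifit1bl1, in which 7 of the 8 interferon response markers were raised at least 4-fold, was mostly of non-efferocytic cells (841 of 954 in Experiment 1 and 548 of 565 in Experiment 2). Among macrophage-like clusters Il10 was highest there, at 7.39 CPM (5.93 to 9.09) and 4.79 CPM (3.30 to 6.73), against medians of 0.836 and 0.924 CPM. The 17 efferocytic cells of Experiment 2 in it held no UMI of Il10 (95% Poisson limit 12.3 CPM). Lgals9 was highest there too, at 245 and 214 CPM against medians of 98.8 and 95.4 CPM. Cd274 reached 28.5 and 44.4 CPM in these cells, and Pdcd1lg2 was at 1.91 and 1.31 CPM. No order of clusters was read for Pdcd1lg2, which in Experiment 2 rests on 9 UMIs there and was at 1.57 CPM (3 UMIs) in the non-efferocytic cells of another cluster. Outside macrophage-like clusters Pdcd1lg2 was at 1.96 CPM (3 UMIs) in a neutrophil lineage-like cluster of Experiment 1, and at up to 13.5 CPM (3 UMIs) in Experiment 2. The cluster led by Cdkn1c and Dio2 in Experiment 1 held Cd274 at 36.8 CPM and Vsir at 101 CPM, against a Vsir median of 178 CPM. In Experiment 2, 2 clusters shared leading genes with it. The one led by Cav1 and H2-Q6, with Ifrd1, Itgb7 and Dusp9 in common as well as Cav1, held Cd274 at 37.3 and Vsir at 99.3 CPM. The other, led by Cdkn1c and Pdpn, with Plpp3 and Gprc5b also in common, held Cd274 at 17.6 and Vsir at 114 CPM, against a Vsir median of 161 CPM.

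Lilrb4a stood out in unnamed clusters of few UMIs whose leading genes included Malat1. It reached 669 CPM in 26 cells of Experiment 1 and 391 CPM in 820 cells of Experiment 2, beside 2054 and 1302 CPM of Lilr4b, whereas it lay between 15.0 and 32.6 CPM in the macrophage-like clusters. The cluster of Experiment 2 held 11.0% of the Lilrb4a UMIs of the non-efferocytic library of Experiment 2 and 2.62% of those of the efferocytic library. Without unnamed clusters and other cell types, an alternative chosen after seeing the data, Lilrb4a and the other 5 lower members were still called.

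Among the 14 macrophage-like clusters with at least 50 cells in each library, the efferocytic cells were higher for Lgals9 in 13, for Havcr2 in 12 and for Tgfb1 in 11. They were lower for Vsir in 14, for Cd86 in 11, for Cd80 in 11 and for Il10 in 10. Cd274 was higher in 9 and lower in 5. Clusters of 1 library pair share their libraries, so these counts are a description. Il10 was higher in 4, and some of the clusters held only 0 to 2 of its UMIs in efferocytic cells. In the Cxcl10-led cluster of Experiment 1, Il10 was at 7.45 CPM (5.87 to 9.32) in non-efferocytic and 7.03 CPM (3.74 to 12.0) in efferocytic cells. That cluster held 10.2% of the non-efferocytic cells and 29.9% of their Il10 UMIs, against 1.69% and 11.7% for efferocytic cells.

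**Figure D4:**
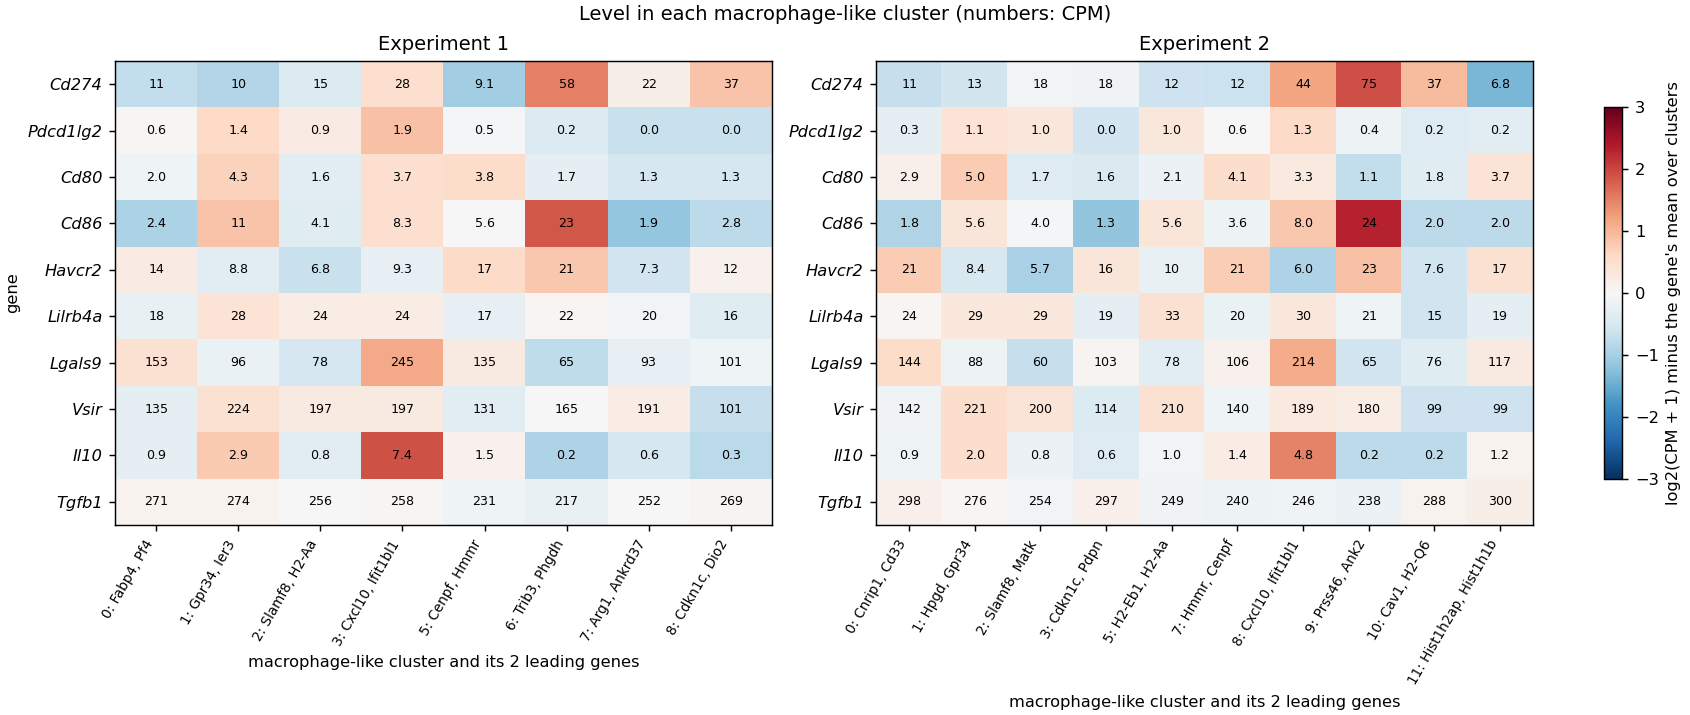
Each column is a macrophage-like cluster of Experiment 1 or Experiment 2 with its 2 leading genes, each row a gene, each number the CPM over the cells of both libraries, and the color the log2(CPM + 1) minus the gene's mean over clusters. Cd274 was highest in the clusters led by Trib3 and by Prss46 (58.4 and 75.2 CPM) and Il10 in those led by Cxcl10 (7.39 and 4.79 CPM).

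Over the 26 clusters with at least 50 cells, the genes whose log2(CPM + 1) followed Cd274 most closely among 11053 compared were Casp9 (Pearson r = 0.872), Cept1 (0.856) and Gna13 (0.797). For Pdcd1lg2 they were Tnfsf14 (0.914), Rabgap1l (0.908) and Senp7 (0.899). The highest Pdcd1lg2 value among these clusters came from 3 UMIs in a T and NK cell-like cluster, and over the 18 macrophage-like clusters alone r was 0.60, 0.83 and 0.77 for these genes and 0.84, 0.89 and 0.61 for those of Cd274. The clusters share libraries and differ in depth, so these are descriptions without a test.

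Related genes were taken from 7 lists that hold 138 symbols, of which 114 genes were tested. Of these, 18 were higher and 42 lower in efferocytic macrophages, beside the 19.9% and 19% of all genes, and 54 did not pass the test. Their median log2 fold change was -0.21.

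Among other ligands of the B7, CD28 and TNF families, 2 of 11 rose and 5 fell. Pvr, a ligand of TIGIT, measured 5.04 and 4.89 CPM in the non-efferocytic and 5.90 and 6.94 CPM in the efferocytic libraries (log2 fold change 0.48, adjusted p = 0.0141 by edgeR). Tnfsf9, the ligand of 4-1BB, rose by 0.65 (adjusted p = 0.0497), though in Experiment 1 its levels were 1.31 and 1.34 CPM. Icosl, the ligand of ICOS, and Tnfrsf14, the ligand of BTLA, had log2 fold changes of -0.75 and -0.69 (adjusted p = 0.0324 and 0.0306).

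Inhibitory receptors split, with 4 of 13 higher and 5 lower. By edgeR, Cd33 rose (log2 fold change 0.97, adjusted p = 0.00718), as did the collagen receptor gene Lair1 (0.61, adjusted p = 0.00133). Cd33 lay at 22.5 and 22.1 CPM in the non-efferocytic and at 27.8 and 58.8 CPM in the efferocytic libraries. Fcgr2b, the inhibitory Fc receptor, fell from 230 and 197 to 99.3 and 64.2 CPM (log2 fold change -1.31, adjusted p = 2.53e-04), and Siglece had a log2 fold change of -1.60 (adjusted p = 6.78e-04).

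Of signals that hold back phagocytes and ligands of checkpoint receptors, 3 of 13 rose and 2 fell. Cd200 lay at 1.24 and 1.37 CPM in the non-efferocytic and at 2.42 and 3.13 CPM in the efferocytic libraries (log2 fold change 1.19, adjusted p = 9.54e-04 by edgeR). Lgals1, the gene of galectin-1, rose from 1851 and 1995 to 3024 and 3133 CPM (0.79, adjusted p = 0.00399). H2-Q7, a nonclassical MHC class I gene, had a log2 fold change of -1.80 (adjusted p = 8.68e-05), and Cd24a one of -0.44 (adjusted p = 0.0463).

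Suppressive cytokines and enzymes other than Il10 and Tgfb1 gave 3 of 18 higher and 8 lower. Il1rn, the antagonist of the IL-1 receptor, rose from 10.7 and 10.6 to 23.8 and 32.2 CPM (log2 fold change 1.49, adjusted p = 9.19e-05 by edgeR). Arg1, which breaks down arginine, was called higher with 0.563 and 0.997 CPM in the non-efferocytic and 17.0 and 2.08 CPM in the efferocytic libraries, a log2 CPM ratio of 4.92 in Experiment 1 and 1.06 in Experiment 2. The other TGF-beta genes, Tgfb3 and Tgfb2, had log2 fold changes of -2.24 and -2.13 (adjusted p = 3.12e-04 and 1.91e-04).

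For TGF-beta activation and signaling, 1 of 22 genes rose and 10 fell. Thbs1, whose product activates latent TGF-beta, lay at 95.2 and 76.2 CPM in the non-efferocytic and at 12.3 and 9.17 CPM in the efferocytic libraries (log2 fold change -2.90, adjusted p = 3.15e-06 by edgeR). Tgfbi, a TGF-beta target, had a log2 fold change of -1.31 (adjusted p = 4.33e-04). Itgav, the integrin chain that binds latent TGF-beta, rose by 0.91 (adjusted p = 1.45e-04).

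Of 18 genes of IL-10 induction and signaling, 3 rose and 7 fell. Socs3, a target of IL-10 signaling, lay at 4.14 and 2.26 CPM in the non-efferocytic and at 0.728 and 1.04 CPM in the efferocytic libraries (log2 fold change -1.68, adjusted p = 0.00302 by edgeR). Zfp36, whose product destabilizes cytokine mRNAs, had a log2 fold change of -1.70 (adjusted p = 2.95e-05). Atf1 and Bhlhe40 rose by 0.64 and 0.52 (adjusted p = 6.12e-04 and 0.00279).

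Of 21 genes tied to the induction and stability of PD-L1, 2 rose, 5 fell and 14 did not pass the test. Irf1, which carries the interferon signal to Cd274, lay at 21.3 and 25.1 CPM in the non-efferocytic and at 13.5 and 9.92 CPM in the efferocytic libraries (log2 fold change -0.89, adjusted p = 0.00387 by edgeR). Batf3 had a log2 fold change of -0.96 (adjusted p = 3.26e-04). Myc rose by 1.18 (adjusted p = 0.00103), from 4.93 and 3.69 to 8.12 and 9.84 CPM. The paper describes RM1 as a line induced by Ras and Myc. The part of RM1 RNA in the Myc values was not tested. Of the related genes Cmtm4 and Cmtm6, whose products protect PD-L1 from degradation, Cmtm4 rose by 0.55 (adjusted p = 0.00122). Cmtm6, named after its values were seen, fell from 63.9 and 66.6 to 41.6 and 43.4 CPM (log2 fold change -0.51, adjusted p = 0.00173).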

How the data were processed

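The deposited matrices hold whole-number UMI counts per gene and barcode, which the authors made with Cell Ranger (3.0.0 per the labels, 3.0.0 and 3.1.0 per the file headers of Experiments 1 and 2) on mm10, unfiltered for cells. The study tested cells with DESingle. Here counts were summed per library and tested with edgeR 4.0.16 (glmQLFit, glmQLFTest, TMM, filterByExpr, Benjamini-Hochberg), with the experiment as a block, since the labels put 1 library of each group in each experiment and deviations of the libraries of an experiment correlated (r = 0.672 over 7097 genes). The SE of a log2 fold change is its absolute value over the square root of the F statistic of the test. It is not the spread of a gene between libraries. Intervals are exact Poisson or Clopper-Pearson (95%) and cover counting error only. Clusters came from scanpy 1.11.5 and leidenalg 0.10.2 (5000 variable genes, 20 components, 20 neighbors, resolution 0.5). They were called X-like from fixed markers, rebuilt here rather than taken from the study, and doublets were not called. Coordinates are GENCODE vM21 positions, matched by identifier for 13853 of 13869 genes tested. Of 138 listed symbols, 135 gave a separate gene (not Lilrb4b, Cd244a and Lrrc33). A symbol that gave none does not show that its gene is absent from the counts. Lilr4b is in none of the list counts. Named were all 10 members, per list up to 2 called genes with the largest rise and 2 with the largest fall (mean of at least 1 CPM), and the 3 genes most correlated with Cd274 and Pdcd1lg2. The members and lists were chosen with earlier results of these data known. DESeq2 1.42.0 was an alternative. Only the fits on summed counts (edgeR with and without the block, and DESeq2) were run on simulated counts, and their outcome is not given here. The filter on cells, the clusters, the thinning and the free RNA steps were not simulated.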

Additional observations from a re-analysis of the deposited data

Results flagged for a closer look

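The log2 CPM ratio of Cd274, efferocytic over non-efferocytic, was 0.227 in Experiment 1 and -0.0434 in Experiment 2, so its signs differed on the scale of library totals. Each value comes from 1 library per group, and the Poisson intervals of the 2 libraries of Experiment 2 overlapped. On the TMM scaling used for the test, the ratios were 0.374 and 0.0242 and the signs did not differ. The difference between the experiments was not tested.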

How the results depend on the processing

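Of the members, Havcr2 kept its direction and its call under all 15 alternatives. Without the replicate block, 1 member was higher and 2 lower (2 and 6 with it), and 26 related genes were lower (42 with it), while calls over all genes went from 19.9% and 19% to 9.27% and 7.74%. With UMIs per cell, 4 members were higher and 1 lower, 44 related genes were higher and 19 lower (49.9% and 4.23% of all genes), and Cd80 (0.1398), Lilrb4a (0.1953) and Vsir (0.1387) changed sign in log2 fold change. Cd274 changed sign in macrophage-like clusters alone (-0.2268), which left out 4 such clusters with a B cell or monocyte marker among their leading genes. With these kept, an alternative chosen after seeing the data, it was 0.1401. With a mean of at least 10 CPM, 2 members were lower because Pdcd1lg2, Cd80, Cd86 and Il10 were no longer tested. Less 10% free RNA, 2 members were higher and 4 lower, with Pdcd1lg2 and Cd80 no longer called. Of related genes, 12 were higher and 27 lower, beside 10.5% and 8.16% of all genes. Leaving out 1 library (no block) gave 0 to 1 members higher, 0 to 3 lower, 0 to 15 related genes higher and 0 to 34 lower. In each of these fits 1 group held 1 library, and calls over all genes also fell below those of the main fit. The member and related-gene counts of these fits are therefore not read as a loss particular to these genes. The cause of the changes under the alternatives was not tested, other than for the 10 CPM filter. The block changed no call beyond those of Pdcd1lg2, Cd80, Lilrb4a, Lgals9 and Il10 among the members. UMIs were few for Pdcd1lg2 (30 to 146 per library), Il10 (111 to 254) and Cd80 (236 to 433).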
